A study of Mus musculus with 76 samples.

Results

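Iron and copper handling is described here through 10 of the 38924 genes in the deposited count table, measured in neural cells that were differentiated in culture from mouse embryonic stem cells. They are Cp, Steap1, Steap2, Steap3, Steap4, Tfrc, Trf, Slc40a1, Slc11a2 and Ireb2. The set was chosen on a readout of these same samples: Steap4 and Cp were lower with ID-8 at the axon stage, and the other 8 are genes of the same metal pathways. Values of that contrast are therefore given as a description, with no test. All 10 genes matched 1 Ensembl identifier each, and all 10 passed the filter on low counts in every comparison.

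Stem cells of 2 strains were used: C57BL/6J, a standard laboratory strain called B6 here, and WSB/EiJ, which descends from wild-caught mice and is called WSB here; RNA was taken at 3 stages: neural progenitor cells (NPC), maturation, and an axon stage. Control cultures and cultures given ID-8, a small-molecule inhibitor of the kinase DYRK1A, were grown at each stage, and at the axon stage each was either left uncut or axotomized (cut). This gave 16 groups and 70 libraries of polyadenylated RNA. The 4 NPC groups held 6 libraries each, the 4 maturation groups held 4 each, and of the 8 axon groups 6 held 4 each, while the uncut ID-8 cultures of WSB and the cut ones of B6 held 3 libraries. The labels give no day in culture, ID-8 dose or number of stem cell clones, and they do not state whether replicates were separate cultures, so p-values measure the spread between these libraries, which may be technical.

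Iron enters most cells bound to transferrin (Trf), which the transferrin receptor (Tfrc) takes into endosomes. There ferric iron is reduced by metalloreductases of the STEAP family and leaves through the divalent metal transporter Slc11a2. Iron leaves the cell through ferroportin (Slc40a1), and ceruloplasmin (Cp), a copper-carrying ferroxidase that astrocytes make in the brain, oxidizes it for loading onto transferrin. Steap3 is the main endosomal ferrireductase of red cell precursors, Steap2 and Steap4 reduce both iron and copper, and Steap1 lacks the NADPH-binding domain of the others. Ireb2 encodes IRP2, an RNA-binding protein that holds on to iron-responsive elements (IREs), short stem-loops in messages such as those of Tfrc, ferroportin and ferritin, when iron is scarce.

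In all, 5 IRE letter matches lay in the messages of the 10 genes, and they are shown because they tie Ireb2 to the uptake and export genes measured below. The search took the sense strand of annotated transcripts for a C, 5 bases, the loop and 5 bases that pair with the first 5. The loop was CAGTG and then A, C or T, and G with T counted as a pair. Other forms of the element were not searched for, so a gene without a match may hold one. The capitals mark the loop. These letters occurred in a transcript of 222 of 21901 protein-coding genes, which is 1.014%.
Slc40a1, 5′ UTR, chr1:45925464-45925493, minus strand: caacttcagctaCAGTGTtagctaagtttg
Tfrc, 3′ UTR, chr16:32631219-32631248, plus strand: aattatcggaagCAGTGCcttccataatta
Tfrc, 3′ UTR, chr16:32631598-32631627, plus strand: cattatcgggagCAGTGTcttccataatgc
Tfrc, 3′ UTR, chr16:32631663-32631692, plus strand: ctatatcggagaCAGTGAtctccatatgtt
Tfrc, 3′ UTR, chr16:32631710-32631739, plus strand: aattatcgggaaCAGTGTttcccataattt
The coordinates are those of GRCm38. A match of letters is a description and not a measured binding site. The ferritin genes Fth1 and Ftl1, from a wider list of metal genes, each held 1 match in the 5′ UTR.

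The promoters of Steap4 and Cp are shown because these genes had the highest rank correlation of any pair among the 10 across the libraries, a description that the choice of both for lower levels with ID-8 at the axon stage feeds. Each window runs from 250 bases before to 50 after an annotated start, from RefSeq on GRCm38.p6, which gives 1 window for Steap4 and 2 for Cp. Capitals mark matches to 2 motifs searched on both strands, TTCNNNGAA (the letters of a STAT site) and TTGCNNAA (the letters of a C/EBP site), which did not overlap each other here.
Steap4, chr5:7960222-7960521, plus strand: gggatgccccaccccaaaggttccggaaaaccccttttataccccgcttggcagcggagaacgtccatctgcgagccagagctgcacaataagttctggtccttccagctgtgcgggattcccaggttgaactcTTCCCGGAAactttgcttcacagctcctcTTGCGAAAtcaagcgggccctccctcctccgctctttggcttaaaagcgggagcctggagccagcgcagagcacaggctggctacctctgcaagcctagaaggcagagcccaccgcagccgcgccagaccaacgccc
Cp, chr3:19956999-19957298, plus strand: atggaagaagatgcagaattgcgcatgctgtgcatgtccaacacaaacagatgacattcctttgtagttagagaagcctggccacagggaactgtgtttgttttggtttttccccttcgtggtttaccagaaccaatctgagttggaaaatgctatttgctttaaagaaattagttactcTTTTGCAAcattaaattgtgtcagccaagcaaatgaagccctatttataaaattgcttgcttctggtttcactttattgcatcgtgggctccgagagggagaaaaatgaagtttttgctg
The Steap4 window held the C/EBP letters 87 bases before the start and the STAT letters, which read the same on both strands, further upstream, and the Cp window shown held the C/EBP letters on the minus strand 70 bases before its start. The other Cp window held neither. Of the 7 members with a window, Steap3 also held the C/EBP letters, 223 bases before a start, and Steap2 the STAT letters, 135 bases before a start. Of 32851 mouse promoter windows, 8.298% held the STAT letters and 10.797% the C/EBP letters, so such matches are common.

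Library totals ran from 22.88 M to 131.5 M counts (M, mega) at the NPC stage, from 25.12 M to 41.74 M at maturation and from 20.37 M to 99.19 M at the axon stage. Levels are given as CPM, a gene's counts in each 1 M counts of the library. Pan-neuronal markers were present as the labels imply: all 7 of that list averaged 1 CPM or more in all 16 groups. Astrocyte markers came with age, with 4 or 5 of 7 at 1 CPM or more in the NPC groups and all 7 in every later group. Of the 6 microglia and macrophage markers, none but Csf1r averaged 1 CPM in any group, and the 6 erythroid markers summed to under 1 CPM in every later library. In bulk RNA, fewer cells of a type and less RNA per cell cannot be told apart. One library stood apart: WSB ID-8 cut replicate 3 at the axon stage did not move with the other libraries of its culture set. A culture set here means axon libraries of a strain with consecutive numbers in their titles and at most 1 library per treatment; the labels do not say that these libraries were grown together.

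Ceruloplasmin and Steap4 had the widest ranges of the 10 genes over the 16 groups. Mean Steap4 was 131 CPM in B6 maturation controls and 0.0748 CPM in WSB ID-8 NPC, a ratio of 1751, and mean Cp was 1233 CPM in the same maturation group and 1.05 CPM in the same NPC group, a ratio of 1174. Trf spanned a ratio of 159 between B6 maturation controls and WSB control NPC. Each of these 3 genes peaked at maturation. All maturation libraries came from a block of sequencing numbers that held no NPC library, so stage and block cannot be told apart in these ranges. Steap3 spanned 19.1-fold, Steap1 16.7-fold and Slc40a1 7.74-fold, and each of these was highest in a B6 NPC group. The least variable were Tfrc (4.93-fold, highest in WSB control NPC), Steap2 (4.21-fold, highest in WSB ID-8 maturation), Slc11a2 (3.22-fold, highest in B6 maturation controls) and Ireb2 (2.85-fold, highest in WSB control NPC).

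**Figure D1:**
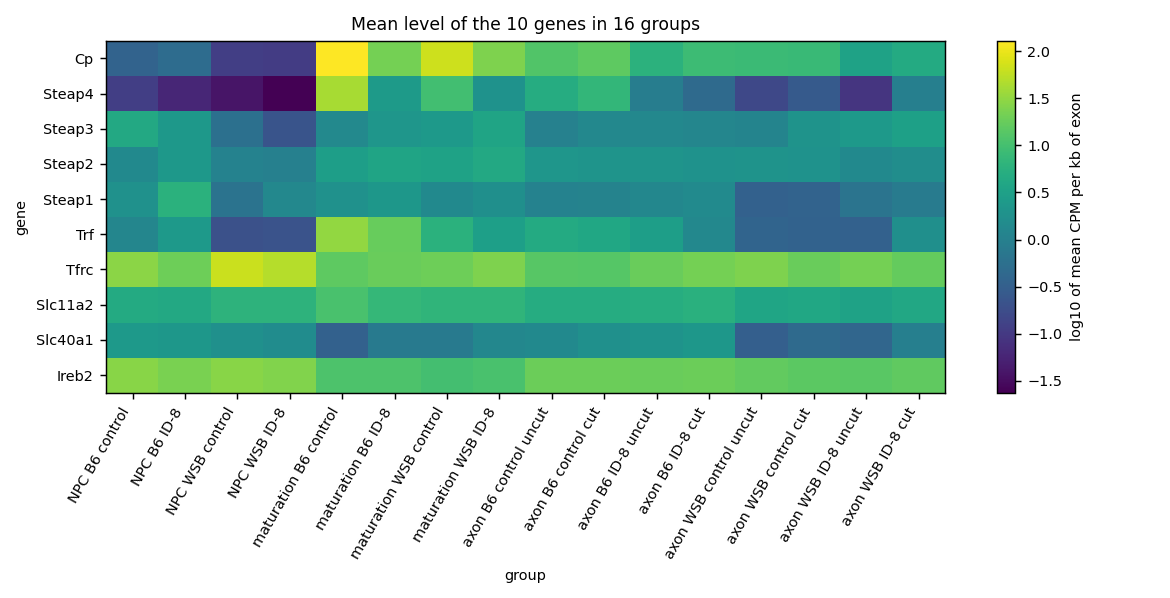
Mean level of each gene (rows) in each of the 16 groups (columns), as log10 of the mean CPM per kb of exon, shown by colour. Cp, Steap4 and Trf are brightest at maturation in B6 controls, where Cp averaged 129 CPM per kb, while Tfrc and Ireb2 lead the NPC groups.

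Per kilobase of exon, a scale on which genes can be compared, the receptor and the iron sensor led at the progenitor stage. In B6 control NPC, Tfrc averaged 29.4 ± 4.79 and Ireb2 28.3 ± 5.01 CPM per kb (SD, n = 6), and these overlapped. All other members averaged under 5 there, down to 0.118 CPM per kb for Steap4. In WSB control NPC, Tfrc at 65.3 ± 11.8 CPM per kb lay above Ireb2 at 28.3 ± 2.75 without overlap. The order changed at maturation, a stage that shares no block of sequencing numbers with NPC. Cp led there in both strains, at 129 ± 48.1 CPM per kb in B6 and 67.9 ± 9.17 in WSB controls (SD, n = 4), with no overlap with the next gene. Ferroportin had the lowest mean there, at 0.344 ± 0.0738 CPM per kb in B6 and 0.822 ± 0.174 in WSB, where it overlapped Steap1. In uncut controls at the axon stage Ireb2, Tfrc and Cp had the top 3 means in both strains, and Ireb2 and Tfrc overlapped in B6, as did Tfrc and Cp. Ireb2 and Cp overlapped in WSB. Cp also overlapped the next gene, Steap4 in B6 and Slc11a2 in WSB.

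**Figure D2:**
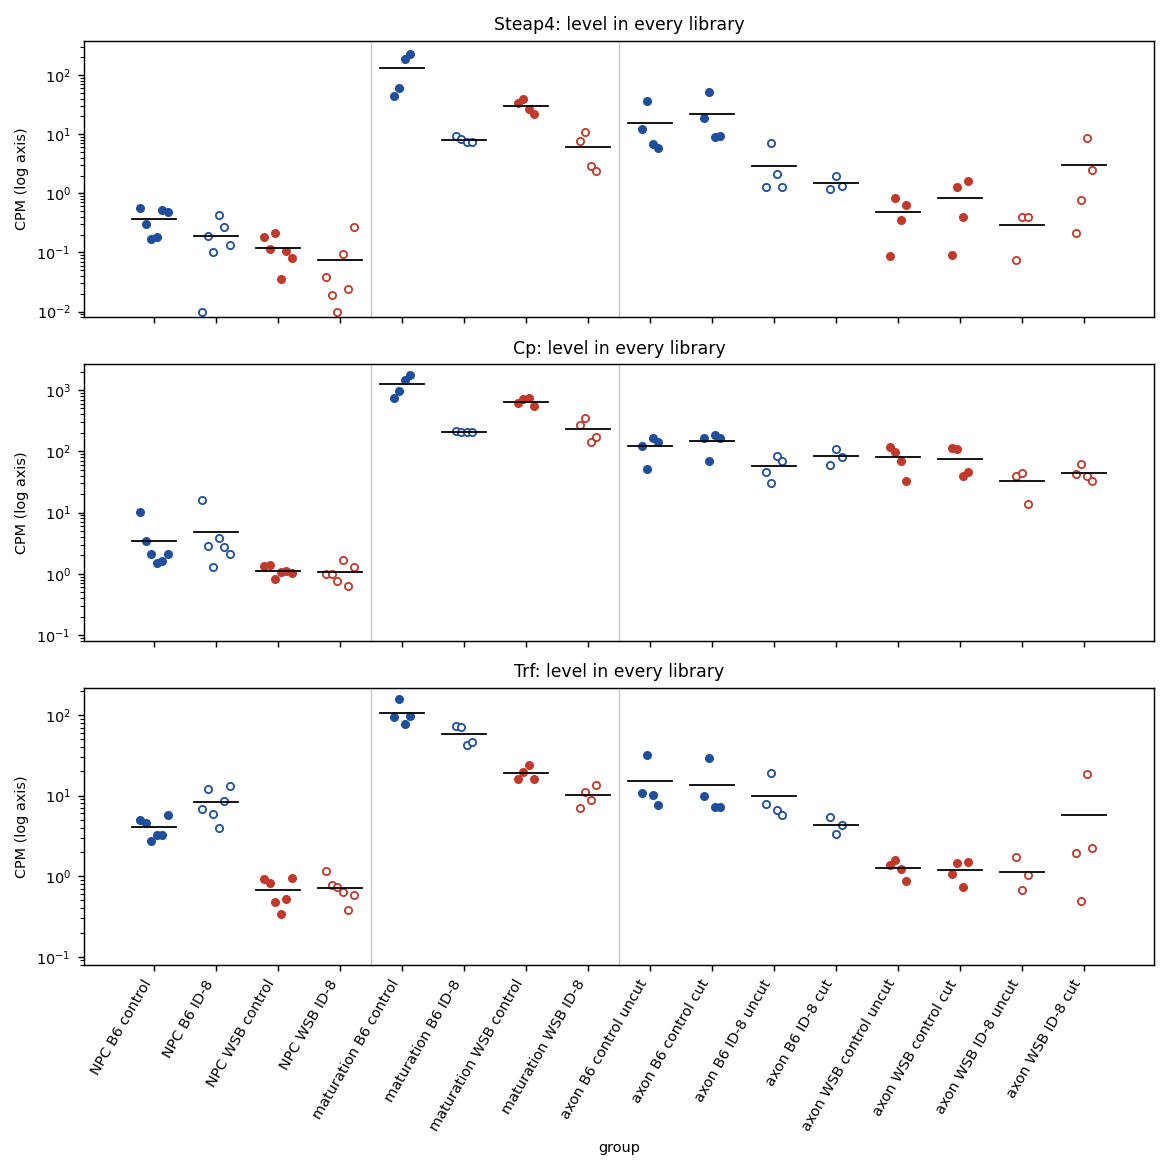
CPM on a log axis for Steap4, Cp and Trf in every library, by group (blue B6, red WSB; filled control, open ID-8; bar, group mean; libraries at 0 sit on the lower edge). Steap4 lies below 1 CPM in all NPC libraries and between 44 and 230 CPM in the B6 maturation controls, against 7.37 to 9.47 CPM with ID-8.

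From progenitor to axon stage, Tfrc and Ireb2 fell and Cp rose in both strains. This comparison took uncut controls against control NPC from the shared library block, 3 NPC libraries per strain with 4 axon libraries in B6 and 3 in WSB. These axon controls also served the ID-8 contrast on which Steap4 and Cp were chosen. Tests of both genes here are therefore not independent of that choice. Cp went from 1.5, 1.62 and 2.12 CPM in the B6 NPC libraries to 122, 52.0, 163 and 144 CPM, a 68.7-fold rise (log2 6.10 ± 0.48, SE; edgeR adjusted p = 4.91e-11), and rose 91.9-fold in WSB (log2 6.52 ± 0.51; adjusted p = 3.79e-11). Steap4 rose in B6 (log2 5.33 ± 1.18; edgeR adjusted p = 0.000352) but did not pass in WSB, where its axon libraries stayed below 1 CPM (log2 2.46 ± 1.38; adjusted p = 0.141). Tfrc fell in both strains, by 1.08 ± 0.19 on the log2 scale in B6 and by 1.57 ± 0.21 in WSB, and Ireb2 fell by 0.77 ± 0.10 and by 0.66 ± 0.11. Whether the strains differ in these stage changes was not tested.

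In B6, 6 of the 10 genes passed where 57.0% of all 18980 genes did, and in WSB 7 passed where 51.1% did. Both shares of the set lie near the background of a comparison in which most genes changed. Steap3 fell in B6 (log2 -1.86 ± 0.56; edgeR adjusted p = 0.00579) and rose in WSB (log2 1.61 ± 0.62; adjusted p = 0.0315), and Slc40a1, the exporter, fell in WSB (log2 -2.61 ± 0.60; adjusted p = 0.000616). Steap3 lost its call without B6 control NPC replicate 6 (edgeR adjusted p = 0.119), and in WSB without any 1 of 4 libraries (up to 0.205). Trf rose in B6 (log2 1.95 ± 0.78; edgeR adjusted p = 0.0329), a call lost without any 1 of 3 libraries. In WSB Trf did not pass (log2 1.30, edgeR adjusted p = 0.212). With Trf and the overlapping gene Gm20425 counted as 1 gene, both strains passed. The rise was then 1.83 ± 0.58 in B6 (edgeR adjusted p = 0.00809) and 1.51 ± 0.61 in WSB (0.0394). Steap2 rose and Slc11a2 fell in WSB, the latter with a call lost without any 1 of 4 libraries.

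At maturation, ID-8 cultures had far less Steap4 and Cp than their controls in both strains, in libraries outside the contrast that chose the set. The members were chosen with earlier results of these data known, so these tests may not be independent of that choice. Replicates 1 and 2 of each group carry title letters a to h, and replicates 3 and 4 letters i to p, which the labels do not explain. The main fit had no term for these runs of letters and took the 4 libraries of a group as separate. Steap4 stood at 44.0, 60.3, 189 and 230 CPM in the B6 controls and at 9.47, 8.26, 7.38 and 7.37 CPM with ID-8. No ID-8 library came near a control library. The fitted difference was 15.5-fold (log2 -3.96 ± 0.55, SE, n = 4 against 4; edgeR adjusted p = 0.000226). In WSB, Steap4 stood at 33.2, 39.9, 26.6 and 22.0 CPM in controls and at 7.69, 10.9, 2.87 and 2.42 CPM with ID-8. Again the groups did not overlap, and Steap4 fell 4.91-fold (log2 -2.30 ± 0.52; edgeR adjusted p = 0.0173), a call lost without WSB ID-8 replicate 3 (adjusted p = 0.0516) or replicate 4 (0.0556).

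Ceruloplasmin stood at 744, 973, 1448 and 1765 CPM in the B6 maturation controls and at 214, 204, 210 and 205 CPM with ID-8. The 4 ID-8 libraries lay within 10 CPM of each other while the controls spread widely, and Cp fell 5.73-fold (log2 -2.52 ± 0.29; edgeR adjusted p = 4.87e-05). In WSB it stood at 610, 707, 735 and 545 CPM in controls and at 272, 347, 142 and 170 CPM with ID-8. These groups did not overlap either (log2 -1.43 ± 0.28; edgeR adjusted p = 0.00759). The fall of Cp was larger in B6 by 1.09 ± 0.39 and that of Steap4 by 1.66 ± 0.71 on the log2 scale, but neither difference between strains passed (edgeR adjusted p = 0.358 and 0.500).

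Among the other STEAP members at maturation, Steap3 moved the opposite way. It rose from 6.83 to 8.64 CPM in the B6 controls to 10.3 to 14.4 CPM with ID-8 (log2 0.67 ± 0.14; edgeR adjusted p = 0.0036), and from 13.9 to 14.5 CPM to 16.6 to 23.1 CPM in WSB (log2 0.61 ± 0.14; adjusted p = 0.0165), the latter a call lost without any 1 of 3 libraries (up to 0.0521). Steap2 was 0.33 ± 0.13 higher in B6 and 0.40 ± 0.13 higher in WSB on the log2 scale and did not pass (edgeR adjusted p = 0.082 and 0.0774), although DESeq2 called both (0.0419 and 0.0288). With the title letters as a block edgeR also called both (edgeR adjusted p = 0.0497 and 0.0368). Steap1 was low, between 0.427 and 4.80 CPM in all 16 maturation libraries, and did not pass.

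Of the transport genes at maturation, transferrin fell and ferroportin rose with ID-8 in B6. Trf stood at 93.6, 159, 76.8 and 97.5 CPM in controls and at 72.8, 70.2, 43.0 and 46.8 CPM with ID-8, without overlap (log2 -0.82 ± 0.26; edgeR adjusted p = 0.039). Slc40a1 stood at 2.48, 2.64, 3.34 and 3.92 CPM in controls and at 10.5, 6.01, 7.02 and 6.50 CPM with ID-8, also without overlap (log2 1.33 ± 0.35; adjusted p = 0.0171). Slc11a2, the endosomal importer, fell by 0.55 ± 0.17 on the log2 scale (edgeR adjusted p = 0.0389). Leaving out 1 library at a time lost the call of Slc11a2 in 7 of 16 cases, of Trf in 6 and of Slc40a1 in 1, without B6 control replicate 2 (adjusted p = 0.0512). In WSB none of these 3 passed by edgeR: Trf differed by -0.85 ± 0.26 (edgeR adjusted p = 0.0713; DESeq2 called it, 0.0246), Slc40a1 by 0.71 ± 0.34 (0.270) and Slc11a2 by 0.08 ± 0.17 (0.842). That holds for the fit without a block: with the title letters as a block edgeR called Trf in WSB (log2 -0.85, edgeR adjusted p = 0.0342). With Trf and the overlapping gene Gm20425 counted as 1 gene and no block, the difference was smaller in WSB and did not pass. It was -0.79 ± 0.20 in B6 (edgeR adjusted p = 0.013) and -0.49 ± 0.20 in WSB (0.177). Tfrc and Ireb2 did not pass in either strain.

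In all, 6 of the 10 genes passed with ID-8 in B6 at maturation, where 17.1% of the 16954 genes tested passed, and 3 in WSB, where 5.89% passed. Without B6 control replicate 2, 3 passed in B6, with no share over all genes given for that fit. The median log2 difference over the 10 genes was 0.15 in B6 and 0.28 in WSB, so they did not move one way. None of the 10 passed the test of the difference between strains in the ID-8 response, where edgeR called 0.46% of all genes. Of the 10, 3 had an unadjusted p under 0.05, and DESeq2 called none. With the title letters as a block edgeR called 1, Slc11a2 (log2 0.62, edgeR adjusted p = 0.0312).

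Cell type markers moved with ID-8 at maturation. The 7 astrocyte markers, a cell type that makes ceruloplasmin, summed to 767 to 4527 CPM in B6 controls and 2421 to 4266 CPM with ID-8, with 2 of 7 higher and none lower by edgeR, and to 3744 to 4682 and 5310 to 7282 CPM in WSB, with 1 higher. Among the B6 controls, replicates 1 and 2, with the lower Steap4 and Cp, had astrocyte sums of 767 and 1018 CPM, and replicates 3 and 4 of 4217 and 4527 CPM. The 7 oligodendrocyte markers summed to 55.2 to 191 CPM in B6 controls and 243 to 412 CPM with ID-8, with 3 of the 5 tested higher. The 6 endothelial markers summed to 17.6 to 31.5 CPM in B6 controls and 2.97 to 8.01 CPM with ID-8, with 2 of the 5 tested lower. The 7 fibroblast and mesenchyme markers summed to 479 to 867 and 382 to 611 CPM, with 1 lower. Neural progenitor markers summed to at most 1020 CPM in B6 controls and to 1092 to 1666 CPM with ID-8, without overlap, with 1 of the 5 tested higher and 1 lower, and choroid plexus markers to 30.6 to 42.8 and 16.5 to 31.0 CPM, with 1 of 6 lower.

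In the WSB maturation cultures the oligodendrocyte markers summed to 123 to 161 CPM in controls and 202 to 250 CPM with ID-8, with 1 of the 5 tested higher. Neural progenitor markers summed to 768 to 1304 and 842 to 2053 CPM, with 1 higher, and choroid plexus markers to 51.5 to 65.7 and 44.6 to 61.1 CPM, with 2 lower. Endothelial markers summed to 28.8 to 57.8 and 9.47 to 42.6 CPM and fibroblast markers to 1503 to 4085 and 810 to 2697 CPM, with none called. The part of these shifts in either strain, the astrocyte markers included, in the metal genes' differences was not tested.

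**Figure D3:**
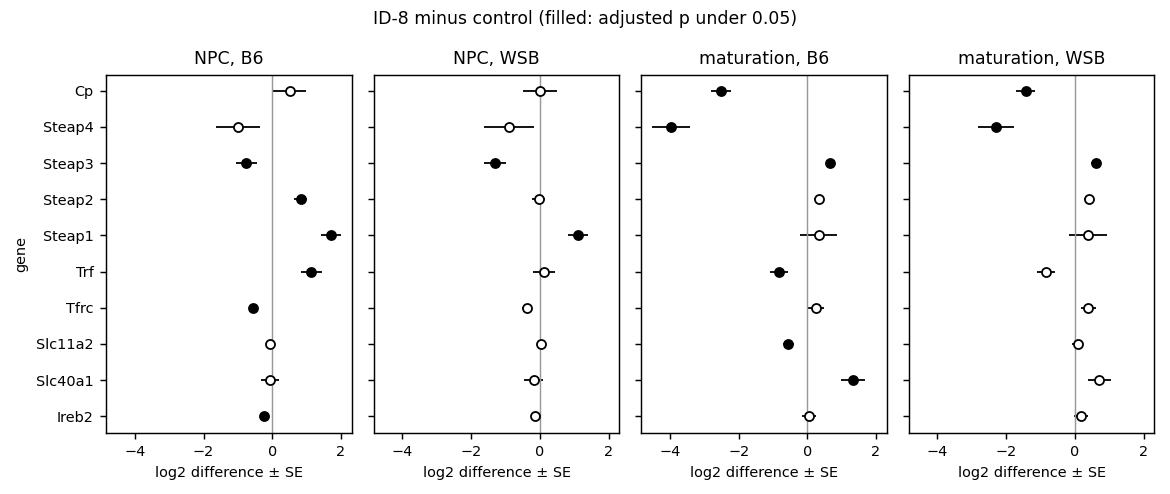
Log2 difference between ID-8 and control for the 10 genes at NPC (left pair) and maturation (right pair), with SE bars; filled points have an edgeR adjusted p under 0.05. Steap4 and Cp are the lowest points in both maturation panels, at -3.96 and -2.52 in B6 and -2.30 and -1.43 in WSB, and neither is filled in the NPC panels.

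In progenitors the ID-8 difference lay in other members of the set. Steap1 was 2.68, 3.73, 1.96, 1.18, 2.84 and 3.02 CPM in B6 controls and 12.6, 5.47, 5.97, 8.83, 8.47 and 6.70 CPM with ID-8. The groups did not overlap (3.24-fold; log2 1.70 ± 0.29, n = 6 against 6; edgeR adjusted p = 0.000151). It also rose in WSB, from a median of 0.975 to 1.87 CPM (log2 1.11 ± 0.30; edgeR adjusted p = 0.0211). Steap3 fell in both strains, by 0.76 ± 0.30 on the log2 scale in B6 (edgeR adjusted p = 0.0489) and by 1.31 ± 0.32 in WSB (0.0127). The B6 call was lost with RLE scaling (0.0548), with no filter on low counts (0.0656), with first runs only (0.0519) and within library block A (0.0634) or B (0.499), which are groups of sequencing numbers, and the WSB call within block B (log2 -0.87; 0.48). This is opposite in sign to its change at maturation, although the difference between stages was not tested.

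Another 4 genes passed in B6 progenitors. Steap2 rose (log2 0.83 ± 0.19; edgeR adjusted p = 0.00173) and Trf rose, from a median of 3.87 to 7.79 CPM (log2 1.13 ± 0.31; adjusted p = 0.00607). Tfrc fell from 138 to 218 CPM to 87.2 to 150 CPM (log2 -0.55 ± 0.14; adjusted p = 0.00456), and Ireb2 fell slightly (log2 -0.23 ± 0.08; adjusted p = 0.0242). The Ireb2 call was lost with no filter on low counts (edgeR adjusted p = 0.0615), with no library block term (0.0747), within block A (0.326; 0.158 with the replicate numbers as a block) and within block B (0.158). In WSB, Tfrc was 0.38 ± 0.14 lower on the log2 scale and did not pass (edgeR adjusted p = 0.0979). Cp and Steap4 were near the lower limit of measurement in progenitors, with 0 to 38 counts of Steap4 per library, and neither passed in either strain.

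The NPC counts were 6 of 10 in B6, where 40.4% of the 17248 genes tested passed, and 2 of 10 in WSB, where 9.57% passed. No member passed the test of the difference between strains (2 of 10 with an unadjusted p under 0.05; 3.19% of all genes called); DESeq2 called 1, Steap2, named after its value was seen (log2 -0.87 ± 0.28; adjusted p = 0.0291). The NPC libraries came in 2 blocks of sequencing numbers, and within block A alone 2 genes passed in B6 and 1 in WSB, and within block B alone 1 and 0. With the replicate numbers as a block within block A, 5 passed in B6 and 1 in WSB. The shares of all genes that passed in these smaller fits are not given here, so these counts have no background beside them. Steap1 in B6 was called within each block, but in WSB in neither (edgeR adjusted p = 0.334 and 0.249). In B6 the calls of Tfrc (0.0611 and 0.121) and Trf (0.0974 and 0.0917) were lost within each block, and that of Steap2 within block B (0.0626).

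Markers of several other cell types rose with ID-8 in B6 progenitors, while other lists fell or went both ways. Of the 7 fibroblast markers 6 were higher and none lower, and the sum of all 7 went from 87.5 to 223 CPM up to 200 to 593 CPM. Of the 8 endoderm and liver markers tested 7 were higher, with sums of 23.3 to 43.0 CPM in controls and 50.6 to 342 CPM with ID-8. Of the 6 choroid plexus markers tested 4 were higher, with sums of 18.0 to 48.9 and 64.4 to 336 CPM; that tissue, and liver, make transferrin. Pan-neuronal markers summed to 1135 to 3261 CPM in controls and 249 to 1739 CPM with ID-8, with 4 of 7 lower. Neural progenitor markers summed to 707 to 1233 and 330 to 941 CPM, with 2 of 6 lower. Endothelial markers summed to 52.1 to 276 and 48.0 to 146 CPM, with 2 of 6 higher and 1 lower. Oligodendrocyte markers summed to 64.3 to 78.7 and 50.9 to 68.1 CPM, with 1 of 7 higher and 1 lower. Astrocyte markers summed to 145 to 191 and 156 to 375 CPM, with 2 of the 5 tested higher and 1 lower. In WSB progenitors the endothelial markers summed to 25.9 to 71.4 CPM in controls and 8.13 to 19.3 CPM with ID-8, with 2 of 6 higher and 2 lower. Of the 8 endoderm and liver markers tested 2 were higher and 1 lower. The choroid plexus, fibroblast and oligodendrocyte lists each had 1 higher and 1 lower. No pan-neuronal, astrocyte or neural progenitor marker was called there. The part of these shifts in the members' differences in either strain was not tested.

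Between strains, the gap in several members ran in one direction across stages. Trf was lower in WSB controls at every stage: 0.337 to 0.952 CPM against 2.72 to 5.75 CPM in NPC (log2 -2.58 ± 0.34; edgeR adjusted p = 2.54e-06), 15.9 to 24.3 against 76.8 to 159 CPM at maturation (log2 -2.49 ± 0.27; 1.1e-05), and 0.881 to 1.57 against 7.63 to 31.9 CPM in uncut axon cultures (log2 -3.45 ± 0.81; 0.00669). The strains did not overlap at any of the 3 stages. At the axon stage 1 WSB library per group lay in a block of sequencing numbers with no B6 axon library. For it strain and block cannot be told apart, and the fit had a term for block. The size depends on counting: 59.4% of the 50-base stretches of Trf also occur in other genes, chiefly the overlapping gene Gm20425. With both counted as 1 gene the differences were -1.30 ± 0.26, -1.54 ± 0.20 and -1.78 ± 0.61 on the log2 scale, and the last no longer passed (edgeR adjusted p = 0.0561).

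Transferrin receptor showed the reverse order. Tfrc in WSB control NPC ran from 341 to 532 CPM with a median of 373, and in B6 from 138 to 218 CPM with a median of 185 (log2 1.20 ± 0.14; edgeR adjusted p = 8.41e-07). In uncut axon controls it stood at 163, 144, 138 and 157 CPM in WSB, the last in a block of sequencing numbers with no B6 axon library. In B6 it stood at 75.7, 58.4, 92.0 and 109 CPM. Neither comparison overlapped, and the axon difference also passed (log2 1.01 ± 0.22; adjusted p = 0.00382). At maturation Tfrc did not pass (log2 0.32 ± 0.22; edgeR adjusted p = 0.360).

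Steap4 was lower in WSB at maturation and in axon controls, and Cp in NPC and at maturation. Steap4 differed at maturation (log2 -2.11 ± 0.51; edgeR adjusted p = 0.0107) and in the uncut axon controls, where it stood at 0.0876, 0.834, 0.354 and 0.624 CPM in WSB and 12.4, 36.2, 6.74 and 5.89 CPM in B6 (log2 -5.17 ± 1.10; adjusted p = 0.00326). The WSB values rest on 4 to 30 counts per library. The axon controls also served the ID-8 contrast that chose Steap4 and Cp, so their axon tests here are not independent of that choice. Cp was lower in NPC (log2 -1.46 ± 0.50; edgeR adjusted p = 0.023), where neither library block alone called it, and at maturation (log2 -0.93 ± 0.28; adjusted p = 0.0346), a call lost in 6 of 16 cases that left out 1 library (up to 0.113). In the axon controls Cp did not pass (log2 -0.35 ± 0.36; edgeR adjusted p = 0.587).

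Steap3 and ferroportin changed order between stages. Steap3 was lower in WSB than in B6 NPC, at 1.64 to 5.04 against 9.69 to 38.3 CPM (log2 -2.85 ± 0.33; edgeR adjusted p = 4.52e-07), and higher at maturation (log2 0.82 ± 0.14; adjusted p = 0.000743). Slc40a1 was higher in WSB at maturation (log2 1.25 ± 0.35; edgeR adjusted p = 0.0256) and lower in axon cultures, at 1.47, 3.20, 3.28 and 3.58 CPM against 9.59, 9.42, 14.2 and 17.0 CPM (log2 -2.0 ± 0.57; 0.0217). Leaving out 1 library lost these 2 ferroportin calls in 4 of 16 and 4 of 30 cases. Slc11a2 was higher in WSB NPC (log2 0.45 ± 0.08; edgeR adjusted p = 7.54e-05) and lower at maturation (log2 -0.76 ± 0.17; 0.00716), and Steap1 was lower in WSB NPC (log2 -1.54 ± 0.30; 0.000302). The change of order from stage to stage was not tested, since the stages were fitted apart.

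Counted over the set, the strains differed in 6 of 10 genes in NPC, where 45.0% of all genes passed, in 6 of 10 at maturation, where 14.8% passed, and in 4 of 10 in uncut axon controls, where 13.2% of 18106 genes passed. The strains also differed in markers. In NPC controls the choroid plexus markers summed to 18.0 to 48.9 CPM in B6 and 4.52 to 7.66 CPM in WSB, with 4 of the 6 tested lower, and the endothelial markers to 52.1 to 276 and 25.9 to 71.4 CPM, with 3 of 6 lower. At the axon stage the endothelial markers summed to 23.4 to 178 CPM in B6 and 4.72 to 22.5 CPM in WSB, with 4 of the 5 tested lower in WSB, and the choroid plexus markers to 12.4 to 85.2 and 6.35 to 12.3 CPM. The fibroblast markers summed to 2212 to 7163 CPM in B6 and 50.8 to 2154 CPM in WSB, without overlap, though 0 of 7 were called, and the oligodendrocyte markers to 127 to 156 and 170 to 633 CPM, with 3 of 7 higher in WSB. Astrocyte markers summed to 1877 to 2787 CPM in B6 and 1623 to 12868 CPM in WSB, with 2 of 7 higher in WSB. At maturation the fibroblast markers summed to 479 to 867 CPM in B6 and 1503 to 4085 CPM in WSB, with 5 of 7 higher. The astrocyte markers summed there to 767 to 4527 and 3744 to 4682 CPM, with 2 of 7 higher in WSB. Of the 6 endoderm and liver markers tested 2 were lower, with sums of 8.13 to 16.7 and 8.23 to 10.9 CPM. Choroid plexus markers summed to 30.6 to 42.8 and 51.5 to 65.7 CPM, with 1 of 6 higher. The part of these marker differences in the members' strain differences was not tested.

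**Figure D4:**
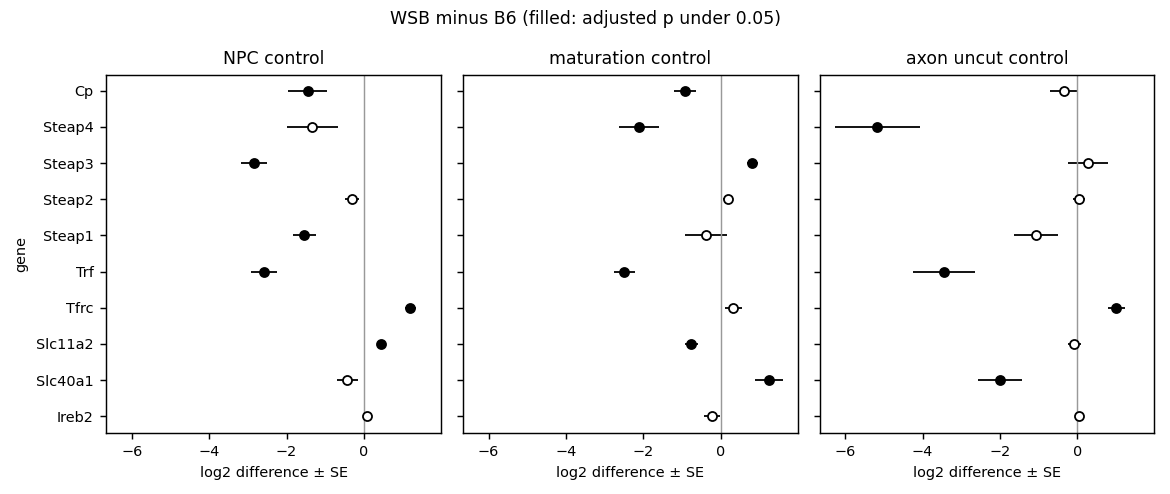
Log2 difference between WSB and B6 control cultures for the 10 genes at NPC, maturation and axon stage (uncut), with SE bars; filled points have an edgeR adjusted p under 0.05. Trf lies below 0 and is filled in all 3 panels, at -2.58, -2.49 and -3.45, and Tfrc is filled above 0 at NPC and axon stage, at 1.20 and 1.01.

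The contrast on which the set was chosen, ID-8 against control at the axon stage, is given here as values only. In B6 uncut cultures Steap4 stood at 12.4, 36.2, 6.74 and 5.89 CPM in controls and 1.28, 7.00, 2.08 and 1.27 CPM with ID-8, listed in the order of the 4 culture sets. Each ID-8 library lay below the control of its own set, while the groups as a whole overlapped through set 2, which was high in both. In B6 cut cultures the values were 19.1, 51.2, 9.05 and 9.28 CPM in controls and 1.19, 1.94 and 1.33 CPM with ID-8, from sets 1, 3 and 4. The fitted log2 differences were -2.42 ± 0.93 and -3.96 ± 1.13, the latter -2.96 ± 0.56 with culture set as a replicate block, and within sets they ran from -2.55 to -1.33 and from -3.20 to -1.77 on log2(CPM + 1).

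Steap4 was low in the WSB axon controls. Uncut controls stood at 0.0876 to 0.834 CPM and uncut ID-8 cultures at 0.0735, 0.393 and 0.393 CPM. Cut controls stood at 0.0898, 1.28, 0.403 and 1.60 CPM and cut ID-8 cultures at 0.213, 0.756, 8.66 and 2.45 CPM, so here the ID-8 mean was the higher (log2 1.98 ± 0.96). That value rests on 1 library: without WSB ID-8 cut replicate 3, which held 8.66 CPM, it was 0.11 ± 0.91. The same library held 18.5 CPM of Trf against 0.487 to 2.24 CPM in the rest of its group, 22.8 CPM of Slc40a1 against 1.17 to 6.78 CPM, and a fibroblast marker sum of 7469 CPM against 63.9 to 2779 CPM.

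Ceruloplasmin was lower with ID-8 in 13 of the 14 pairings of an ID-8 library with the control of its own culture set. In B6 uncut cultures it stood at 122, 52.0, 163 and 144 CPM in controls and 45.8, 30.3, 83.9 and 70.1 CPM with ID-8. The B6 cut cultures gave 165, 68.7, 186 and 165 CPM with ID-8 60.3 and 81.8 CPM in sets 1 and 4, and the third ID-8 library, of set 3, was higher than these but below its control. Set 2 was lowest for Cp and highest for Steap4 in B6. In WSB uncut cultures, sets 2 and 4 stood at 98.2 and 32.6 CPM in controls and at 43.4 and 13.8 CPM with ID-8, and over the 3 sets with both libraries the differences ran from -1.51 to -1.16 on log2(CPM + 1). The exception was WSB set 3 when cut, at 39.2 CPM with ID-8 and 38.9 CPM in the control. The fitted log2 differences were -1.08 ± 0.36, -0.82 ± 0.39, -1.21 ± 0.40 and -0.70 ± 0.35 in B6 uncut, B6 cut, WSB uncut and WSB cut cultures.

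**Figure D5:**
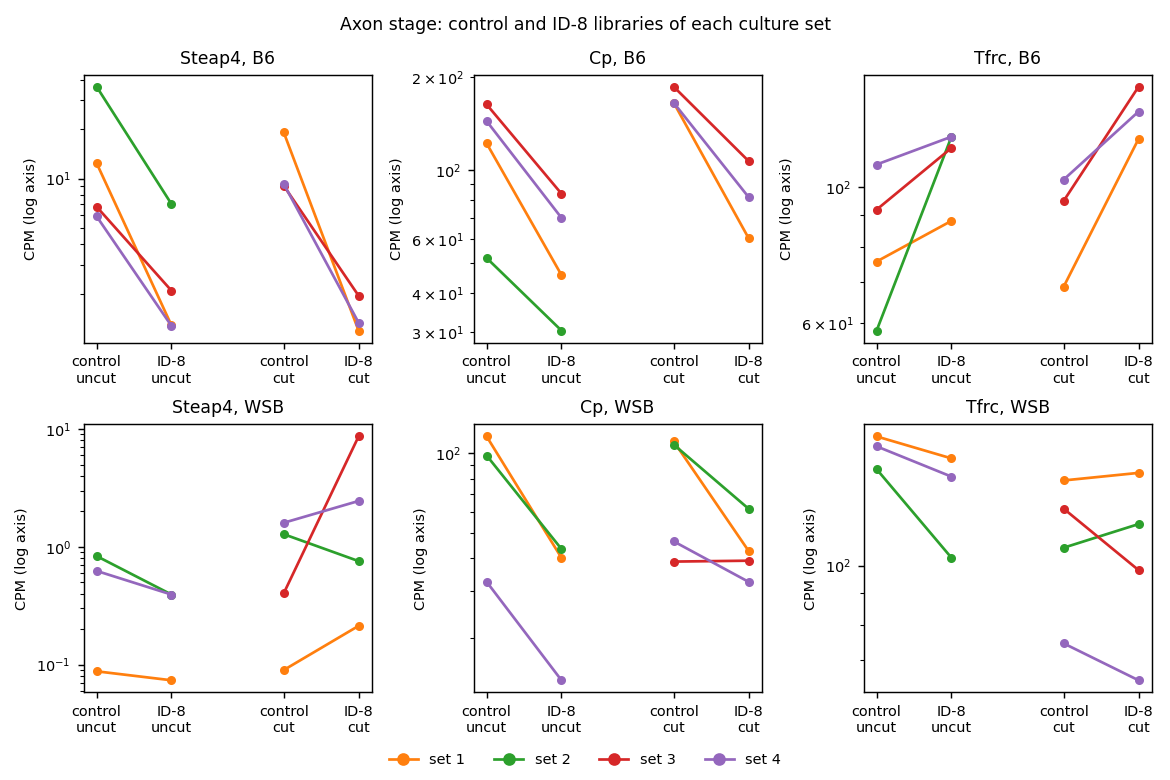
CPM (log axis) of Steap4, Cp and Tfrc in B6 (top) and WSB (bottom) axon cultures; each line joins the control and ID-8 library of a culture set, uncut at left and cut at right of each panel. All 7 B6 lines fall for Steap4 and Cp and rise for Tfrc, and the steepest rise of Steap4 in WSB, from 0.403 to 8.66 CPM, is cut set 3.

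Of the other members, Tfrc was higher with ID-8 in all 7 B6 pairings, by 0.14 to 1.04 in uncut and by 0.36 to 0.79 in cut cultures on log2(CPM + 1), and lower in the 3 uncut WSB pairings. Trf was lower in all 7 B6 pairings, with differences of -0.72 to -0.35 in uncut and -0.95 to -0.64 in cut cultures. In WSB Trf was higher in 2 of 3 uncut pairings (-0.61 to 0.19) and in 3 of 4 cut pairings (-0.72 to 3.49). Slc40a1 was higher in every uncut pairing, by 0.17 to 0.96 in B6 and by 0.18 to 0.43 in WSB. In cut pairings its differences ran from -0.06 to 0.61 in B6 and from -0.30 to 1.79 in WSB. Steap3 differed in WSB, at 8.12, 25.2 and 7.66 CPM in uncut ID-8 cultures against 1.86, 12.4 and 3.95 CPM in the controls of the same sets. In cut WSB cultures Steap3 was higher in 3 of 4 pairings, with differences from -0.53, in set 3, to 1.87. Fitted differences of Steap2, Slc11a2 and Ireb2 lay between -0.42 and 0.16 in the 4 comparisons. These 4 contrasts share no controls with each other but share them with the axotomy and strain comparisons of the same stage. The uncut controls are also shared with the comparison to NPC. Across all 18106 genes edgeR called none in any of the 4 (0.0%), with 675 to 1380 genes at an unadjusted p under 0.05 and 12 to 97 called by DESeq2. These fits had no term for culture set, and the share over all genes with such a term is not given.

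After axotomy, edgeR called none of the 10 genes. In the comparisons of cut with uncut cultures in B6 control, WSB control, B6 ID-8 and WSB ID-8, edgeR called 0 of 10, as of all 18106 genes (0.0%); DESeq2 also called none of the 10 and 1 to 17 of all genes. Members with an unadjusted p under 0.05 numbered 0, 2, 0 and 2. Those in WSB controls were Tfrc and Ireb2, which differed by -0.52 ± 0.21 and -0.23 ± 0.09 on the log2 scale, with Tfrc lower after the cut in all 4 culture sets (edgeR adjusted p = 0.979 for both). Those in WSB ID-8 were Steap4 and Trf, at 3.41 ± 1.19 and 2.17 ± 0.87, and cut replicate 3 was the highest of its group for both. Without that library Steap4 differed by 1.56 ± 1.05. In the 3 sets with both libraries, which do not include it, Steap4 was higher after the cut in 3, by 0.18 to 1.31 on log2(CPM + 1), and Trf in 2, with differences of -0.18 to 0.67. In B6 controls Steap4 was higher after the cut in all 4 sets, by 0.38 to 0.59 on log2(CPM + 1), and Cp by 0.19 to 0.44, against fitted differences of 0.52 ± 0.88 and 0.27 ± 0.35 (edgeR adjusted p = 1 for both). Steap3, named after its values were seen, was higher after the cut in all 14 pairings within sets, by 0.19 to 0.42 in B6 controls, 0.03 to 0.24 in B6 ID-8, 0.10 to 1.14 in WSB controls and 0.23 to 1.28 in WSB ID-8 cultures on the same scale, and edgeR called it in none of the 4 comparisons. The difference between strains in the response to the cut was called for 0 of 10 genes by edgeR and by DESeq2, with none at an unadjusted p under 0.05. With culture set as a block, members called remained 0 in each of these comparisons.

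A wider list of 44 iron and copper genes, of which 39 to 41 were tested per comparison, shows what lay around the 10. At maturation in B6, 7 of 40 passed with ID-8, 2 higher and 5 lower. Cybrd1, a ferric reductase of the intestinal brush border, fell by 2.28 ± 0.37 on the log2 scale (edgeR adjusted p = 0.000739), Ltf, lactoferrin, by 7.23 ± 1.17 (0.000725) to 0.043 CPM, and Atp7b, a copper-exporting ATPase, by 1.67 ± 0.33 (0.00306), while Cox11, a copper chaperone of cytochrome oxidase, rose by 0.47 ± 0.11 (0.0109). In WSB 3 of 40 passed: Cybrd1 fell by 2.14 ± 0.36 (0.00333) and Atp7b by 1.39 ± 0.33 (0.0206; lost without control replicate 1 or ID-8 replicate 4), and Slc39a14, a zinc and iron importer, rose by 1.12 ± 0.15 (0.000821). The median log2 difference over the list was 0.02 in B6 and -0.06 in WSB, and over all genes it was 0.00 in both. The shares of the list that passed lie near the 17.1% and 5.89% of all genes that did.

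In B6 progenitors 14 of 39 list genes passed with ID-8, 13 of them higher, where 40.4% of all genes passed. The importer Slc39a8 rose 11.0-fold (log2 3.46 ± 0.50; edgeR adjusted p = 3.04e-05), Bmp6, an iron-responsive growth factor of liver, rose by 1.87 ± 0.34 (0.00025), and the ferritin heavy chain Fth1 by 0.82 ± 0.15 (0.00028). The fourth, Pcbp2, an iron chaperone, rose by 0.30 ± 0.06 (0.000418). In WSB 2 of 39 passed where 9.57% of all genes did, Hfe2 (log2 1.12 ± 0.33; edgeR adjusted p = 0.0326) and Pcbp2 (0.22 ± 0.06; 0.019). Slc39a8 was the 1 list gene whose ID-8 response differed between strains (log2 -4.47 ± 0.68, WSB minus B6; edgeR adjusted p = 0.00359), while DESeq2 called 4. The call was lost within block A (-3.84; 0.121, and -3.71; 0.0936 with the replicate numbers as a block) and within block B (-5.14; 0.184).

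Between strains, 15 of 39 list genes passed in NPC, 9 of 40 at maturation and 4 of 40 in axon controls, where 45.0%, 14.8% and 13.2% of all genes passed. The list's share lay above the background at maturation alone, with no test of that. Ncoa4 and Ftl1 were among the named genes at all 3 stages. Ncoa4, which carries ferritin to lysosomes, was lower in WSB by 2.94 ± 0.13, 2.79 ± 0.30 and 2.37 ± 0.37 on the log2 scale at the 3 stages, and the ferritin light chain Ftl1 by 1.87 ± 0.17, 1.89 ± 0.29 and 1.51 ± 0.32 (all with edgeR adjusted p of 0.00307 or less). Fth1 did not pass at any stage (log2 0.11, 0.42 and 0.83; edgeR adjusted p = 0.582, 0.164 and 0.0981). At maturation Ltf was lower in WSB by 6.27 ± 1.10 (edgeR adjusted p = 0.00109) and Cybrd1 higher by 2.28 ± 0.37 (0.000511). Ncoa4 and Ftl1 share sequence with other loci, 17.87% and 58.44% of their 50-base stretches, so counting could split their reads. From progenitor to axon stage 21 of 41 list genes passed in B6 and 14 in WSB, where 57.0% and 51.1% of all genes did, and Cybrd1 rose in both (log2 5.03 ± 0.44 and 4.68 ± 0.44; edgeR adjusted p = 2.54e-10 and 1.05e-09). Of those that passed, 11 were lower in B6 and 5 in WSB. Slc48a1 also rose in B6 and WSB (log2 1.61 ± 0.18 and 1.73 ± 0.19). Pcbp1 (log2 -1.02 ± 0.10 and -1.13 ± 0.11) and Pcbp2 (-1.01 ± 0.08 and -0.80 ± 0.08) fell in both. No list gene passed in any axotomy comparison by edgeR or DESeq2, with 2, 1, 0 and 1 at an unadjusted p under 0.05 in B6 control, WSB control, B6 ID-8 and WSB ID-8.

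Over the 70 libraries, Steap4 and Cp had a Spearman correlation of 0.83 on log2(CPM + 1), the highest of the 45 pairs, followed by Steap4 with Trf at 0.79 and Cp with Steap2 at 0.78. Cp and Ireb2 were the most opposed pair, at -0.77. These describe libraries that share stage, strain and depth, and Steap4 and Cp were chosen because both were lower with ID-8 in 30 of them, the axon libraries. Among 14835 genes with a mean of 1 CPM or more, those closest to Steap4 were Mmp19 (0.927), Gbp2 (0.927) and Svep1 (0.925), and those closest to Cp were Erlec1 (0.955), Dusp3 (0.952) and Nceh1 (0.952).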

How the data were processed

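The authors deposited 1 table of expected counts per gene for 76 sequenced samples. The submitters' processing notes name Bowtie2, RSEM, featureCounts and limma and the build GRCm38, with no versions; per the labels' protocols, polyadenylated RNA was made into stranded libraries. GRCm38 is the C57BL/6J sequence, and its part in strain differences was not tested. Of the expected counts, 9.318% were not whole; repeat runs of 6 libraries were summed, giving 70, and sums were rounded.

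CPM used library totals. Tests used edgeR 4.0.16 (R 4.3.3; robust quasi-likelihood, TMM scaling, filterByExpr) on all genes of a stage, with library block as a term where a stage held more than 1, and Benjamini-Hochberg adjustment; passing means an adjusted p under 0.05. DESeq2 1.42.0, other scaling, no filter, block alternatives and left-out replicates were alternatives. The code was tested on simulated data.

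The members and gene lists were chosen with earlier results of these data known. Wider-list genes named as passing are among the up to 4 with the smallest p-values of those that passed in a comparison. Not every such gene is named, and Fth1 is given between strains although it did not pass. Axon culture sets are a reading of consecutive title numbers, which the labels do not explain: B6 libraries of a set deviated together in 21 of 21 pairs (lowest correlation 0.501), and WSB in 19 of 21 (lowest -0.048), so the WSB sets are not shown to be pairs. In NPC block A, 3 of 3 pairs did so in each strain (lowest 0.139 and 0.11), and at maturation 40 of 48. Gene symbols were found for 37607 of 38924 identifiers.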

Additional observations from a re-analysis of the deposited data

Results flagged for a closer look

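Of 140 sets of 1 gene in 1 group, 12 held a library far from the others, where chance gives about 5%. In B6 axon cultures, replicate 2 was high for Trf, at 31.9 CPM in uncut controls (others 7.63 to 10.8), 29.1 CPM in cut controls (7.21 to 9.99) and 19.0 CPM in uncut ID-8 cultures (5.79 to 7.78), and for Steap4 at 7.00 CPM in uncut ID-8 cultures (1.27 to 2.08). The fibroblast marker sum of that uncut control library was 7163 CPM, the highest of its group; its part was not tested. WSB ID-8 cut replicate 3 held 18.5 CPM of Trf (0.487 to 2.24).

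Replicate 1 of the B6 progenitors was high for Cp, at 10.2 CPM in controls (1.5 to 3.37) and 15.8 CPM with ID-8 (1.29 to 3.85). In WSB progenitors Steap4 was 0.274 CPM in ID-8 replicate 6 (0 to 0.094) and Steap2 was 8.79 CPM in control replicate 1 (12.7 to 14.5). At maturation in WSB, Steap1 was 0.427 CPM in ID-8 replicate 3 (2.96 to 3.21), and Steap3 was 14.5 CPM in control replicate 4, with the others at 13.9. Tfrc was 88.2 CPM in B6 uncut ID-8 replicate 1 (the others reached 121).

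The ID-8 response of Slc39a8 in progenitors differed between strains by -4.47 on the log2 scale (WSB minus B6; edgeR adjusted p = 0.00359), with means of 2.40 and 25.0 CPM in B6 control and ID-8 and 3.22 and 1.54 CPM in WSB. The call was lost within library block A (edgeR adjusted p = 0.121) and block B (0.184).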

How the results depend on the processing

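The counts of the 10 genes that passed changed most with the progenitor library blocks. For ID-8 in B6 progenitors 2 passed in block A alone and 1 in block B alone, and in WSB 1 and 0. With the replicate block within block A, 5 passed in B6 and 1 in WSB. DESeq2 called 1 gene for the strain difference in that response, and 1255 of all genes. Shares over all genes are not given for the block fits and the left-out fits. For ID-8 in WSB at maturation DESeq2 called 1820 of all genes, where edgeR called 999. At maturation the numbers did not pair the libraries; a replicate block by title letters (a to h, i to p) gave 5 genes for ID-8 in WSB, as DESeq2 did (5), Trf (-0.85; adjusted p = 0.0342) and Steap2 (0.0368) among them, Steap2 in B6 (0.0497), and 1, Slc11a2 (0.62; 0.0312), for the difference between strains in the response. The replicate block by culture set left 0 called in every axotomy comparison, and strain differences at the axon stage have no value under it, since sets lie within a strain. In the axon ID-8 description it gave Steap4 a log2 difference of -2.96 in B6 cut cultures.

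Leaving out 1 library gave 4 to 6 genes for the maturation strain difference, 3 to 6 and 2 to 4 for ID-8 in B6 and WSB, 0 to 0 for the response, 3 to 4 for the axon strain difference, 0 to 0 for axotomy, and 5 to 6 and 5 to 7 from progenitor to axon stage in B6 and WSB. Single values that changed sign were small or rested on few counts, and the cause was not tested. Cp with ID-8 in progenitors was -0.02 in B6 (block A with replicate block), and in WSB 0.00 (RLE scaling), 0.00 (no filter) and 0.19 (block B). Steap4 was 0.94 in WSB (block B), and its response difference was -1.64 and -1.73 (block A without and with the replicate block). Over left-out libraries, Steap4 after the cut ranged from -0.37 to 1.46 in B6 controls, Cp from -0.19 to 0.21 in WSB controls, and the strain difference in the Steap4 response from -0.72 to 1.10. Steap1 with ID-8 in uncut WSB axon cultures ranged from -0.60 to 1.31, the lowest without ID-8 replicate 1.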
